A study of Mus musculus with 2 samples.

Results

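In a deposited list of macroH2A1 peaks from mouse embryonic stem cells, 3 genes of fibroblast growth factor (FGF) signalling each had 1 peak: the receptor gene Fgfr1, the ligand gene Fgf18 and the intracellular FGF homologue Fgf13. They were chosen by name, as rows of the list whose gene symbol is one of the 3, out of 2560 listed peaks (2558 distinct regions, since some regions stand in more than 1 row). Having a peak is therefore what chose them and is not a result. The list comes from chromatin immunoprecipitation and sequencing (ChIP-seq) of E14, an established line of mouse embryonic stem cells, grown untreated on gelatine in medium with serum and leukemia inhibitory factor. The study made 1 library with an antibody raised against part of mouse macroH2A1 and 1 with non-specific IgG, both from E14 cells without a genetic change given in the labels. Neither has a replicate, so each value below describes this list, no test was run, and intervals cover counting error only. The list gives no read count, enrichment or score, and how deeply either library was sequenced is unknown. No values of the IgG library were analysed here.

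MacroH2A1 is a histone H2A variant with a large additional globular domain, known for its concentration on the inactive X chromosome and for its presence at silent developmental genes. FGF ligands are secreted proteins that bind receptor tyrosine kinases together with heparan sulphate and signal through adaptors, Ras and a cascade of kinases. In mouse embryonic stem cells this signal, driven mainly by FGF4, is known to favour the exit from self-renewal and the choice of primitive endoderm. FGF homologous factors such as FGF13 share the FGF fold but are not secreted, and are known to bind voltage-gated sodium channels.

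The 3 peaks took 3 different positions relative to their genes: upstream of Fgfr1, inside Fgf13 near its start, and beyond the end of Fgf18. Counted up to the peak edge that faces the gene start, distances were 1594 bp for Fgfr1, 4298 bp for Fgf13 and 39050 bp for Fgf18. None of the 3 peaks covered the gene start, as was usual in the list. The upstream, downstream and inside classes, to which these 3 belong, held 51.4%, 32.6% and 14.2% of all peaks. The peaks of Fgfr1 and Fgf13 lay within 5 kb of the start, as did 15.0% of all listed peaks (383 of 2560). The peak of Fgf18 was farther from the start than the median of the whole list, 32.2 kb. In width the order was Fgfr1 (1751 bp), Fgf13 (1501 bp) and Fgf18 (1201 bp), against a median of 1551 bp over all peaks and a range of 1051 to 4551 bp. Many peaks shared a width: 100 others had that of Fgfr1, 109 that of Fgf13 and 104 that of Fgf18.

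**Figure D1:**
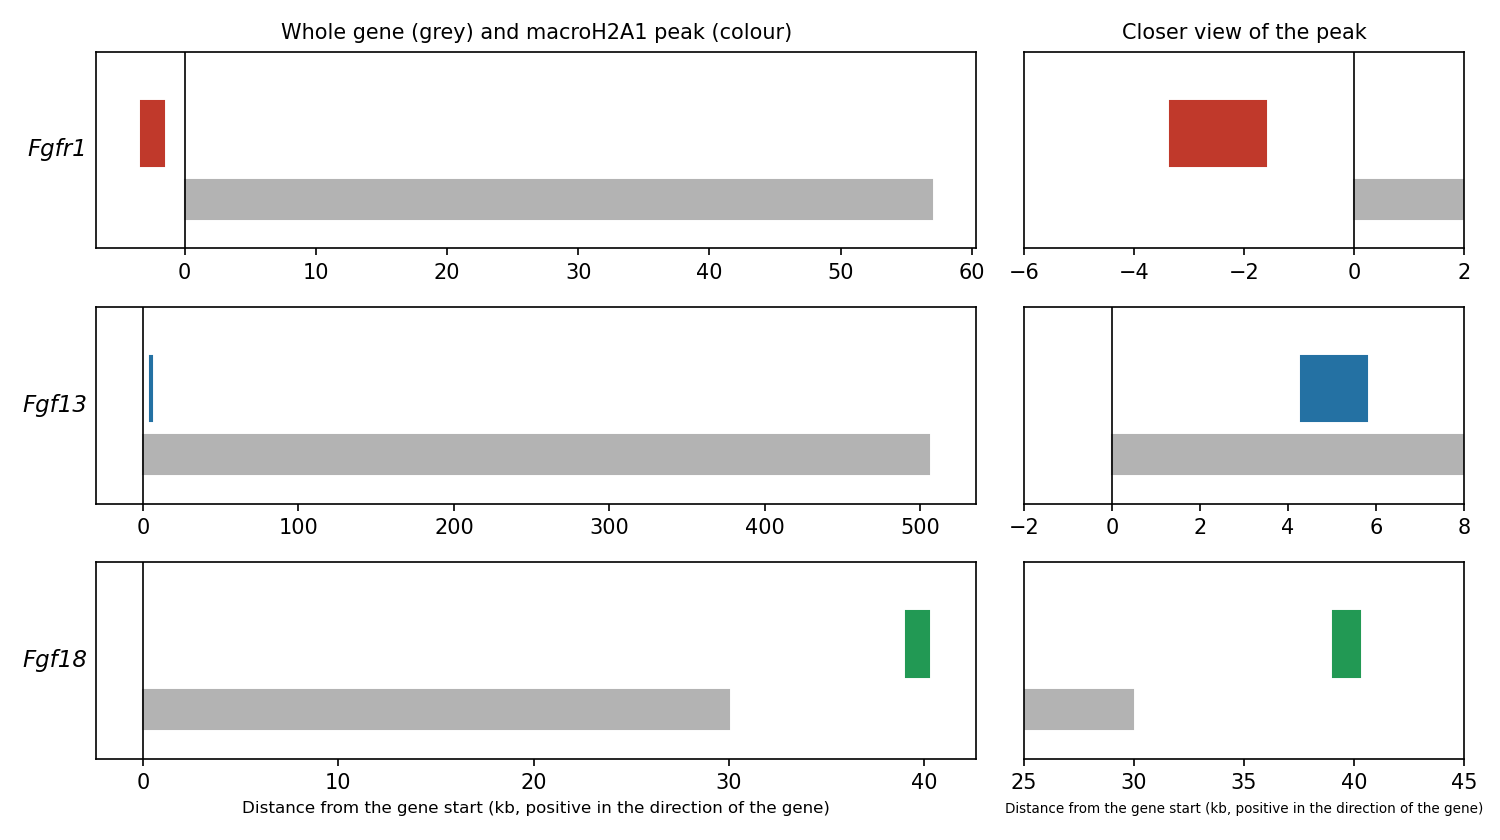
Position of the macroH2A1 peak (coloured block) relative to the gene (grey bar) for Fgfr1, Fgf13 and Fgf18, in kb from the gene start (vertical line), positive in the direction of the gene; the right-hand panels enlarge the stretch around each peak. The Fgfr1 peak ends 1594 bp before the gene start, the Fgf13 peak begins 4298 bp inside the gene, and the Fgf18 peak lies 9.08 kb past the gene end.

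Fgfr1 (ENSMUSG00000031565), which encodes FGF receptor 1, the main FGF receptor of undifferentiated embryonic stem cells, is annotated in the list on the plus strand of chromosome 8 from 26629244 to 26686186 (build mm9). Its peak spanned 26625900 to 26627650, wholly upstream. The near edge was 1594 bp and the far edge 3344 bp from the start. Among all peaks, 159 (6.21%) were closer to the start of their gene. Within the upstream class, which held 51.4% of the list, 87 of 1316 peaks (6.61%) were closer than the Fgfr1 peak. The median distance of that class was 28.0 kb.

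The Fgfr1 peak was the widest of the 3, and 1692 of the 2560 peaks (66.1%, exact 95% interval 64.2 to 67.9%) were narrower. Within chromosome 8, 107 of 178 peaks were narrower and 13 were closer to their gene start. The name of each peak ends in a number from 1 to 2560 whose meaning is not given in the sources used here. For Fgfr1 it was 179, with 93.0% of peaks bearing a higher number. Lower-numbered peaks tended to be wider (median 1751 bp in the lower part of the numbering and 1401 bp in the upper, each 1280 peaks). Number and width were thus correlated (Spearman rho -0.6) and are not independent measures.

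Fgf13 (ENSMUSG00000031137), the FGF homologous factor also called FHF2, is annotated on the minus strand of the X chromosome from 56315322 to 56821248, a span of 505927 bp. The peak covered 56815450 to 56816950, inside the gene, with its near edge 4298 bp and its far edge 5798 bp past the start. The distance to the near edge is 0.85% of the gene's length, and the peak itself covers 0.297% of the gene. Distances and ranks for Fgf13 hold for the start in the list, while RefSeq gives several starts, described below. Of the 364 peaks listed as inside a gene (14.2% of the list), 11 lay at a smaller percentage of the gene's length and 73 at a smaller distance in bp. The median of this class was 32.3% of the gene's length.

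Fgf13 is among the longest genes with a peak inside. In the inside class 25 peaks lay in longer genes, and 42 lay in genes of 400 kb or more, a limit set after the values were seen. Among these 42 the median distance to the start was 173 kb. Those closer than the Fgf13 peak were in Fam155a, at 1.07 kb, and in A930011G23Rik, at 1.53 kb. Next after Fgf13 came Csmd1, a neuronal membrane protein gene, at 5.12 kb.

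The X chromosome held 26 peaks, of which 4 were inside a gene: those of Fgf13, Gdpd2, Chm and the gene listed as Fam70a. E14 is a male line, so its X chromosome is present as a single copy. On this chromosome 7 peaks were closer to their gene start than that of Fgf13 and 9 were narrower. The number in the name of the Fgf13 peak, 2527, was the highest of the 26, and 1.29% of all peaks had a higher one. Over the whole list 41.6% of peaks (39.6 to 43.5%) were narrower than the 1501 bp of Fgf13.

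Fgf18 (ENSMUSG00000057967), a secreted ligand known for its part in bone, cartilage and lung development, is annotated on the minus strand of chromosome 11 from 33017430 to 33047400, a span of 29971 bp. Its peak lay at lower coordinates, 33007150 to 33008350, which is past the end of the gene. From the gene end to the peak there were 9080 bp, and from the gene start 39050 bp. Of the 834 downstream peaks (32.6% of the list), 155 (18.6%) lay closer to the end of their gene, where the median was 39.9 kb. By distance to the start, 332 of the 834 (39.8%) were closer, against a class median of 57.7 kb.

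The Fgf18 peak was narrow: 356 of all 2560 peaks (13.9%, 12.6 to 15.3%) and 16 of the 141 on chromosome 11 were narrower. The number in its name was 2058, with 19.6% of peaks bearing a higher number. By RefSeq (GRCm38.p6), the protein-coding genes next to Fgf18 on its downstream side are Smim23 and Fbxw11. The list assigns each peak to the gene with the nearest start, so the entry under Fgf18 records proximity and not a link to that gene.

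RefSeq promoter windows were at hand for 2 of the 3 genes, Fgf18 and Fgf13. The windows below hold the 250 bases before the start, on the gene's strand, 5′ to 3′, with each CG dinucleotide in capitals. They are shown to describe RefSeq starts of these genes, and need not be the starts in the list: from the RefSeq start to the RefSeq gene end Fgf18 measures 30431 bp, against 29971 bp in the list. Their coordinates are in GRCm38.p6 and cannot be set against the mm9 coordinates of the peaks. For Fgf18 the window is chr11:33147401-33147650. RefSeq gives several starts for Fgf13, and the first window shown, chrX:59567349-59567598, is the one whose distance to the gene end (505210 bp) is closest to the gene length in the list (505927 bp). For both genes these lengths differ by more than a window, by 460 bp for Fgf18 and 717 bp for Fgf13. The second, chrX:59585573-59585822, belongs to the most upstream RefSeq start, 18.2 kb away.
Fgf18: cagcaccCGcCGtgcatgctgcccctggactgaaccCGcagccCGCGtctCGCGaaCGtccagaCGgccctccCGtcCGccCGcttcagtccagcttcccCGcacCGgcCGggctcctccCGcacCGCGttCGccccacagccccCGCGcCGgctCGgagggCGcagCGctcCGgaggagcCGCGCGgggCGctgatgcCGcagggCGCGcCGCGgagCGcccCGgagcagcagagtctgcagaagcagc
Fgf13, start closest to the listed length: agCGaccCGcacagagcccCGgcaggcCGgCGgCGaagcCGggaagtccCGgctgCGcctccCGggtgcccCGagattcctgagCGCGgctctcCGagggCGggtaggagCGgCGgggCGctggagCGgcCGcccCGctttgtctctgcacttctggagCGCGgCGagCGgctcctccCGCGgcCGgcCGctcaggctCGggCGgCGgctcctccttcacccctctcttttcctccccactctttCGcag
Fgf13, most upstream start: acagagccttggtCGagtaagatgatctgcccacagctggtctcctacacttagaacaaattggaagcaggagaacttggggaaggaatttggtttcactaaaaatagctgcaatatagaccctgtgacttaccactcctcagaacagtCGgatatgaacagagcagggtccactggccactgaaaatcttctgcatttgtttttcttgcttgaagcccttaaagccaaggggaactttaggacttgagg

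The Fgf18 window held 37 CG dinucleotides and the first Fgf13 window 33, against a median of 6 over 32841 RefSeq promoter windows of the same length. Windows with fewer made up 97.8% for Fgf18 and 96.0% for this Fgf13 window. The most upstream Fgf13 window had 2, and 18.8% of windows had fewer. CG reads the same on both strands, and 92.1% of all windows hold at least 1. Of the remaining Fgf13 starts in the table, 419 and 451 kb downstream of the most upstream one, the nearer had 6 and the farther 31. The RefSeq starts of Fgf13 thus differed among themselves in CG content, and which of them, if any, is the start in the list was not settled.

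All 3 peaks were isolated in the list. Within 200 kb of each there was no other peak, which held for 52.8% of all peaks (1351 of 2560). The nearest other peak to that of Fgfr1 lay 361 kb away inside Kcnu1, a potassium channel gene, with a width of 1801 bp. On the other side of Fgfr1, 689 kb away, a peak of 1651 bp lay 859 bp upstream of Adam5, a member of the ADAM metalloproteinase family. Farther than 361 kb from any other peak were 37.5% of the listed peaks.

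For Fgf18 the nearest other peak was 641 kb away, beyond the gene's start side, and for Fgf13 it was 1.37 Mb away, both under genes without a symbol. Their opposite neighbours were at 3.26 Mb for Fgf18 and at 12.7 Mb for Fgf13, the last beside Magea4. A nearest peak farther than that of Fgf18 was found for 21.9% of peaks, and farther than that of Fgf13 for 6.80%. Both shares are over the whole list, and the X chromosome held 26 peaks, against 141 on chromosome 11. Ranks within a chromosome were not computed for this distance. No peak fell elsewhere in the 505927 bp of Fgf13, since no other region lay within 200 kb of the span of any of the 3 genes.

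**Figure D2:**
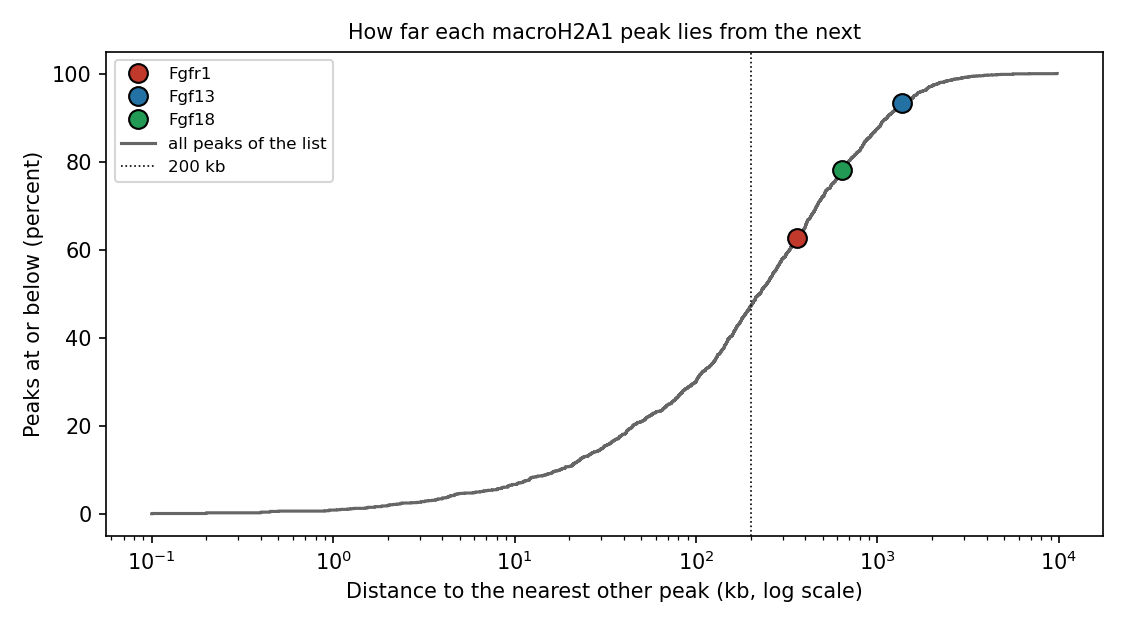
Distance from each listed peak to the nearest other peak (kb, log scale, values under 0.1 kb drawn at 0.1), as the cumulative percent of 2560 peaks (line), with Fgfr1, Fgf13 and Fgf18 as points and 200 kb as a dotted line. The 3 points lie to the right of the dotted line, at 361 kb for Fgfr1, 641 kb for Fgf18 and 1368 kb for Fgf13.

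The peaks most like each of the 3 were found among peaks of the same class at other genes with a symbol, by the sum of the absolute log2 ratios of distance and of width, where 0 would be identical. For Fgfr1 these were, among 882 upstream peaks, those of Odc1, an enzyme of polyamine synthesis (1678 bp from the start, 1701 bp wide, sum 0.116), Ryr1, the calcium release channel of skeletal muscle (1630 bp and 1651 bp, 0.117) and App, the amyloid precursor protein gene (1498 bp and 1801 bp, 0.130). For Fgf13, among 348 inside peaks, they were Bsph1 (4360 bp and 1551 bp, 0.068), Tax1bp1 (4255 bp and 1401 bp, 0.114) and Gdpd2 (4321 bp and 1651 bp, 0.145), the last also on the X chromosome. For Fgf18, among 409 downstream peaks, they were Dact1, a modulator of Wnt signalling (39929 bp and 1201 bp, 0.032), Phlda1 (38990 bp and 1151 bp, 0.064) and Tes (41008 bp and 1201 bp, 0.071). None of these 9 genes is an FGF ligand or receptor, which was largely fixed in advance. Fgfr1 and Fgf18 held the only upstream and downstream peaks of that family. Only the inside peaks of Fgf6 could therefore have matched, and only Fgf13.

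Most of the FGF family had no listed peak. Of 27 ligand and receptor genes, 4 had at least 1 (14.8%, exact 95% interval 4.19 to 33.7%), against 6.16% of all 21631 protein-coding genes (1333). Fgfr1, Fgf13 and Fgf18 were picked for having a peak, so the share is a description and the interval covers counting only. Among 5 receptor genes the peak of Fgfr1 was the only one, and Fgfr2, Fgfr3, Fgfr4 and the decoy receptor gene Fgfrl1 had none. Among 4 FGF homologous factors it was Fgf13 alone, with none for Fgf11, Fgf12 and Fgf14. Of 15 paracrine ligand genes 2 had peaks, Fgf18 and Fgf6, and of the 3 endocrine ones (Fgf15, Fgf21 and Fgf23) none had. Fgf4, the main FGF of embryonic stem cells, was among those without, as were Fgf5 and Fgf8.

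Fgf6, a ligand known from skeletal muscle, is the further family member and the one with more than 1 peak; 0.855% of all protein-coding genes had 2 or more. Both its peaks lay inside the gene on chromosome 6, at 126967800 to 126969250 (1451 bp, 2196 bp from the start) and 126970750 to 126972550 (1801 bp, 5146 bp from the start). They were 1500 bp apart, and no other region lay within 200 kb of either. The gene is short, 12.6 kb. The peaks of Fgfr1, Fgf13 and Fgf18 had no such close neighbour. Of the 27 ligand and receptor genes, 4 had a peak within 50 kb of the start (Fgfr1, Fgf13, Fgf18 and Fgf6), against 4.35% of all genes. Within 10 kb 3 of the 27 had a peak (Fgfr1, Fgf13 and Fgf6), against 1.81% of all genes. A peak overlapping the gene was found for 2 of the 27 (Fgf13 and Fgf6), against 1.55% of all genes. Fgfr1, Fgf13 and Fgf18 were picked for having a peak, so these counts are a description.

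**Figure D3:**
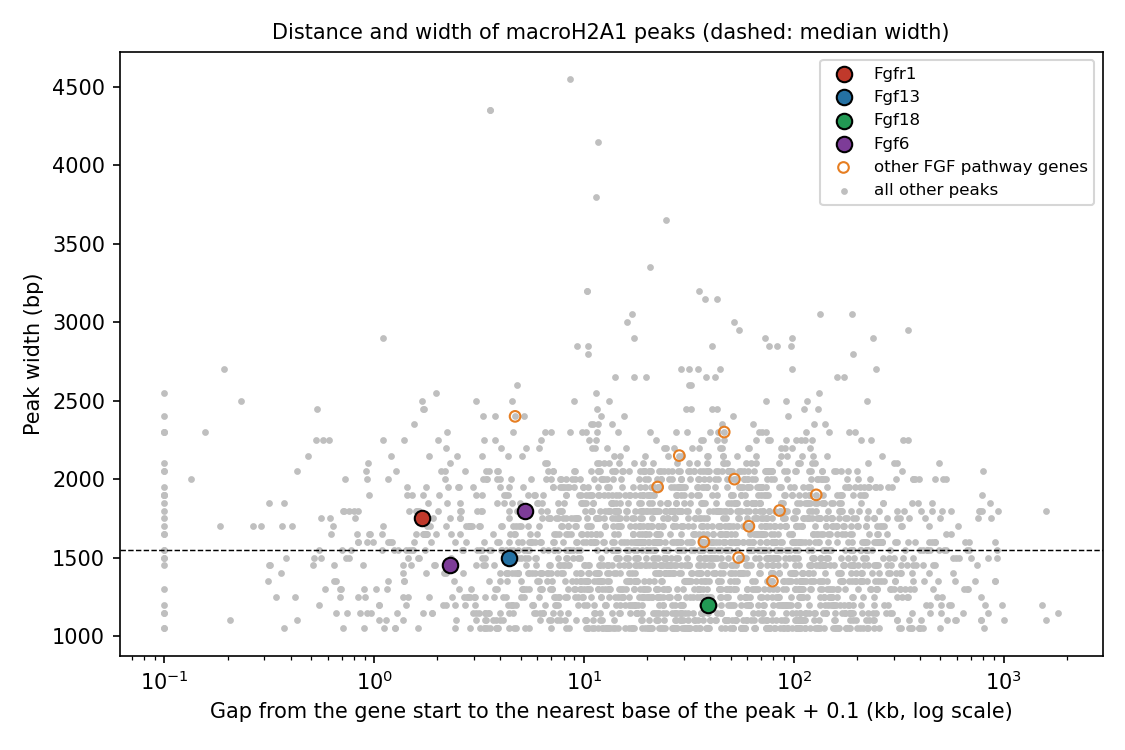
Peak width (bp) against the distance between gene start and near peak edge (kb plus 0.1, log scale) for the 2560 listed peaks, with Fgfr1, Fgf13, Fgf18 and Fgf6 filled, other FGF pathway genes as open circles and the median width of 1551 bp as a dashed line. Fgfr1, Fgf13 and both Fgf6 peaks lie between 1.59 and 5.15 kb, while Fgf18 lies at 39050 bp and is the narrowest of these at 1201 bp.

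Other genes of the pathway were read from lists of co-receptors and heparan sulphate genes, signal transducers, feedback inhibitors and target transcription factors. Of these 60 genes 7 had a peak (11.7%, 4.82 to 22.6%), together 11 peaks, again beside 6.16% of all protein-coding genes. Their peaks lay 4.59 to 128 kb from the gene start, with a median of 52.0 kb, all farther than those of Fgfr1 and Fgf13. The Fgf18 peak, at 39050 bp, fell within that range, farther out than the peaks of Kl, Sdc1 and Spry1 and the closest of Sulf2. Their widths ranged from 1351 to 2401 bp with a median of 1901 bp, and 9 of the 11 were wider than 1551 bp. Of the 5 FGF ligand and receptor peaks 2 were wider, and of all peaks 48.6%.

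At the level of the receptor complex 3 of 22 genes had peaks (13.6%, 2.91 to 34.9%, which includes the 6.16% of all protein-coding genes). Sulf2, a secreted enzyme that trims heparan sulphate, had 3 upstream, at 4.59, 52.0 and 128 kb, of which the closest was the widest at 2401 bp. Sdc1, the heparan sulphate proteoglycan syndecan-1, had 1 peak of 2151 bp at 28.4 kb, past the gene. Kl, the co-receptor klotho for endocrine FGFs, had 1 of 1601 bp inside the gene at 37.2 kb, close to the gene's end, the gene being 41.1 kb long. Klb, the related co-receptor gene, had none.

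Among feedback inhibitors 4 of 12 had peaks (33.3%, 9.92 to 65.1%, beside 6.16% of all protein-coding genes), at 22.3 to 85.5 kb from the start, where the median over all peaks was 32.2 kb. The list was chosen with earlier results of these data known, so the share is a description and the interval covers counting only. Spry1 and Spry4 encode Sprouty proteins, which dampen receptor tyrosine kinase signalling. Spry1 had a peak of 1951 bp at 22.3 kb downstream, in a row that also names LOC100046643, and Spry4 had 2 downstream, at 54.4 and 79.0 kb, with widths of 1501 and 1351 bp. Spred2, a Sprouty-related inhibitor, had 2 upstream peaks 12.2 kb apart, at 46.5 kb (2301 bp) and 61.0 kb (1701 bp). Dusp4, a dual-specificity phosphatase, had 1 of 1801 bp at 85.5 kb upstream. Within 5 kb of the start 0 of the 12 had a peak, beside 1.16% of all protein-coding genes, which in a list of this size is no visible difference.

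No peak was listed for any of 20 signal transducers, among them the adaptors Frs2 and Grb2 (which allows a share of up to 15.0%), nor for any of 6 target transcription factors, among them Etv4, Etv5 and Egr1 (up to 50%). With 6.16% of all genes having a peak, absence from lists of this size is not a difference that could be shown. Genes without a symbol took 891 of the 2560 peaks (34.8%) and were not counted in any list.

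**Figure D4:**
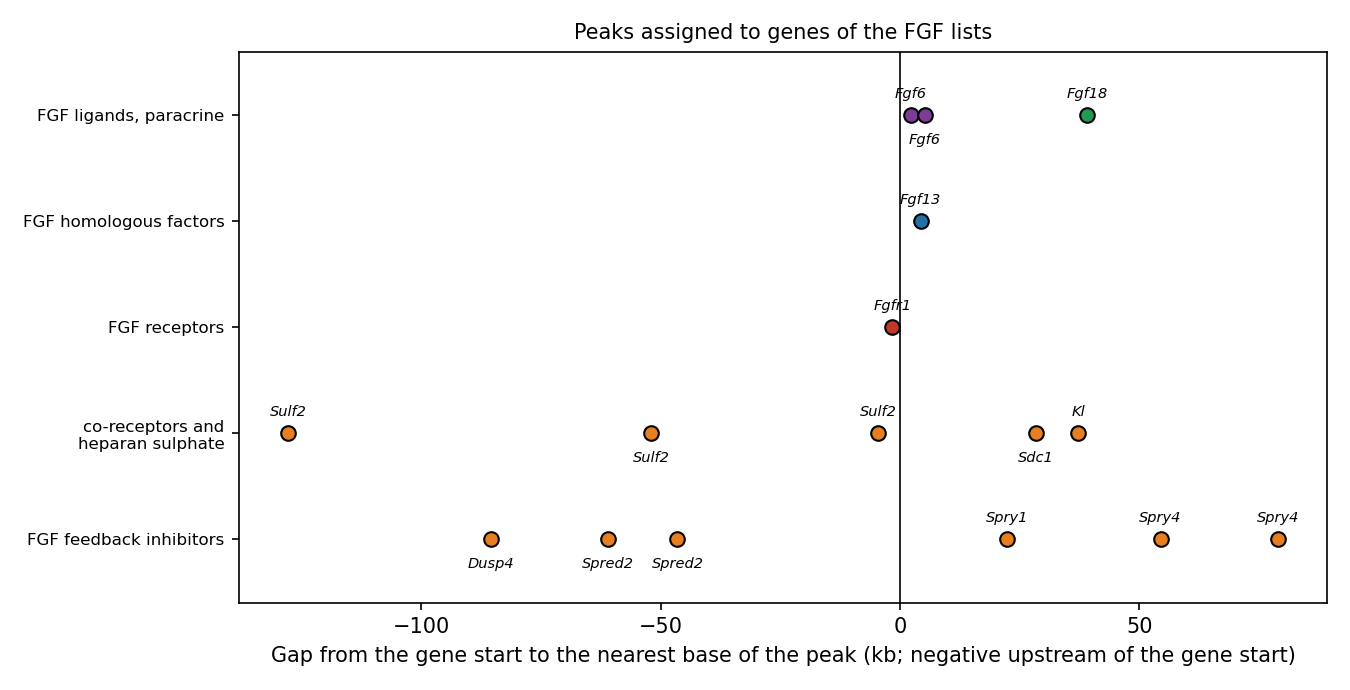
Distance between gene start and near peak edge (kb, negative upstream of the start) for every peak assigned to a gene of the FGF lists, 1 row per list with at least 1 peak. Fgfr1, Fgf13 and Fgf6 lie within 5.15 kb of their starts and Fgf18 at 39050 bp, and the feedback inhibitors lie 22.3 to 85.5 kb away on both sides.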

How the data were processed

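The deposited list holds macroH2A1 peak regions and the gene assigned to each. Per the submitters' processing notes, reads were mapped with Bowtie to NCBIM37 (mm9). The peak names begin with CCAT, and per the file headers the columns are those of ChIPpeakAnno, with assignment to the nearest gene start. For the peak threshold and the control, nothing is given in the sources used here. Coordinates, widths and distances are in bp as the authors deposited them. In all 2560 rows the deposited distance ran from the gene start to the lower edge of the peak, so gaps to the nearest base were recomputed. Each row assigns its peak to 1 gene start. Rows were counted as peaks, although the 2560 rows hold 2558 distinct regions; neighbours were counted over distinct regions.

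Listed symbols were looked up among the symbols and synonyms of the 21631 protein-coding genes of RefSeq GRCm38.p6, with the chromosome required to be equal; a synonym could match more than 1 gene. All 87 list genes were found there. The genes, lists and limits were chosen with earlier results of these data known. Named are the 3 genes, every list gene with a peak, peaks next to theirs and the 3 most like peaks per gene. Genes listed beside Fgf13 as long genes, Fgfr2 and the other list genes without a peak, and the outer neighbours were named after their values were seen. Intervals are exact binomial (95%), and a count of 0 allows 3 counts. Some pathway genes are not reported here. Promoter windows are RefSeq's. Python 3.11.15, pandas 2.3.3, NumPy 2.4.6, SciPy 1.17.1 and matplotlib 3.10.9 were used, and the distance code was tested on made-up regions.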

Additional observations from a re-analysis of the deposited data

How the results depend on the processing

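Of 38 alternatives, 14 moved a value past the limit used, and some others changed a value by less. The limit was any change for a distance, over 1.5 times for a count, and outside the exact 95% interval for a share. That 0 reversed a direction was fixed in advance. Only distances have a direction, and no peak of Fgfr1, Fgf13 or Fgf18 covered its gene start. Measured to the peak midpoint, the distances were -2469 bp for Fgfr1 (negative is upstream), 5048 bp for Fgf13 and 39650 bp for Fgf18. The deposited distances to the lower peak edge were -3344, 5798 and 40250 bp. The deposited shortest distance, to either gene end, was 9080 bp for Fgf18. Within 500 kb the Fgfr1 peak had 1 neighbour, and all other windows gave 0. Against peaks of the same chromosome only, the share of narrower peaks was 60.1% for Fgfr1, 34.6% for Fgf13 and 11.3% for Fgf18, and against other inside peaks 43.7% for Fgf13. The family count of 4 became 2 with peaks overlapping the gene and 2 with peaks wider than the median. Under these settings the share of all protein-coding genes also fell, from 6.16% to 1.55% and 3.22%. The moves in distance follow from how the alternatives are defined. For the moved shares of narrower peaks, the exact 95% interval of each alternative included the share over all peaks. Each alternative uses a part of the whole list, so this is a description and not a test. On the same chromosome the intervals were 52.5 to 67.4% for Fgfr1 (66.1% over all peaks), 17.2 to 55.7% for Fgf13 (41.6%) and 6.63 to 17.8% for Fgf18 (13.9%). Against other inside peaks the interval for Fgf13 was 38.5 to 48.9%. No paired analysis was possible because each library is single and no result comes from a test. Depth is unknown, so a missing peak cannot be read as missing macroH2A1.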
